A study of Rangifer tarandus with 8 samples.

Results

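The keratin gene family of the deposited gene annotation is described here. Members were all protein coding gene records whose first gene symbol was KRT followed by a number and, optionally, 1 letter. The rule took 52 of 21861 protein coding genes, out of 27607 genes in all. Of these 52, 27 lay in 1 cluster on chromosome 19 and 25 in 1 cluster on chromosome 5, and 0 lay outside them.

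The study applied single-cell ATAC-seq, an assay in which a transposase cuts accessible DNA, to the skin of reindeer (Rangifer tarandus). Its 8 libraries fall into 7 groups: velvet (the skin of the growing antler) and back skin of adult animals, each at day 0 and at day 7 after 12 mm full-thickness wounds, and velvet grafted to the back and taken at 6 weeks (2 animals), 3 months or 6 months. Per the labels, the epidermis was removed with dispase before the dermis was digested, and dead cells were gated out in every group. Reads were assigned to genes of the cattle (Bos taurus) build ARS-UCD1.2. All positions and gene structures below are therefore those of cattle, not of reindeer, and accessibility values were not analysed here. The annotation belongs to no library and has no replicates, so the values below are exact counts and lengths of its records and no test was made.

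Keratins are the intermediate filament proteins of epithelial cells, and of hair, nail, horn and hoof. A filament is built from pairs of 1 acidic type I and 1 basic to neutral type II chain. Each chain has a central coiled-coil rod, whose length and sequence are conserved, between a head and a tail that differ from chain to chain. Different pairs mark different cells: KRT8 and KRT18 simple epithelia, KRT5 and KRT14 the basal layer of the epidermis, KRT1 and KRT10 the layers above it, and KRT6 with KRT16 and KRT17 wound edges and skin appendages.

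The type I cluster spanned 988 kb (chr19:40860845-41849264) and all its 27 members lay on the minus strand. From low to high coordinate it began with KRT222, followed by KRT24 and then by KRT25, KRT26, KRT27 and KRT28, type I keratins of the inner root sheath of the hair follicle, which stood side by side over 52.6 kb. Next came KRT10 of the suprabasal epidermis, KRT12 of the cornea, KRT20 of simple gut and urinary epithelia, and KRT23. The hair and nail keratins made 1 unbroken run in the member order, from the 11th to the 20th place: KRT39, KRT40, KRT33A, KRT33B, KRT34, KRT31, KRT37, KRT32, KRT35 and KRT36. This run covered 531 kb. The cluster ended with KRT15 (basal cells and hair follicle bulge), KRT19 (simple epithelia), KRT9 (palm and sole epidermis), KRT14, KRT16, KRT17 and KRT42. KRT16 and KRT17 were thus neighbours, 6.67 kb apart, and the basal keratin KRT14 lay 27.4 kb from KRT16.

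In the type II cluster, 759 kb long (chr5:26998530-27757234), 21 members lay on the plus strand and 4 on the minus strand. It began with KRT18 on the minus strand and KRT8 on the plus strand, which stood head to head with 36.8 kb between their bodies. KRT18 is a type I chain by protein type, and its pairing partner KRT8 is a type II chain. They stood side by side, whereas KRT5 and KRT14, or KRT1 and KRT10, lay on different chromosomes. KRT78, KRT79, KRT4 and KRT3, keratins of mucosa, gland ducts and cornea, came next. They were followed by the suprabasal KRT77, KRT1 and KRT2, the inner root sheath genes KRT73, KRT72 and KRT74 (69.7 kb), the basal KRT5, and then KRT6A and KRT6B. KRT75, of the companion layer of the follicle, preceded the hair and nail genes KRT82, KRT84, KRT85, KRT83, KRT86 and KRT81. These 6 covered 122 kb and were interrupted only by KRT89. KRT7 (simple epithelia) and KRT80 closed the cluster.

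**Figure D1:**
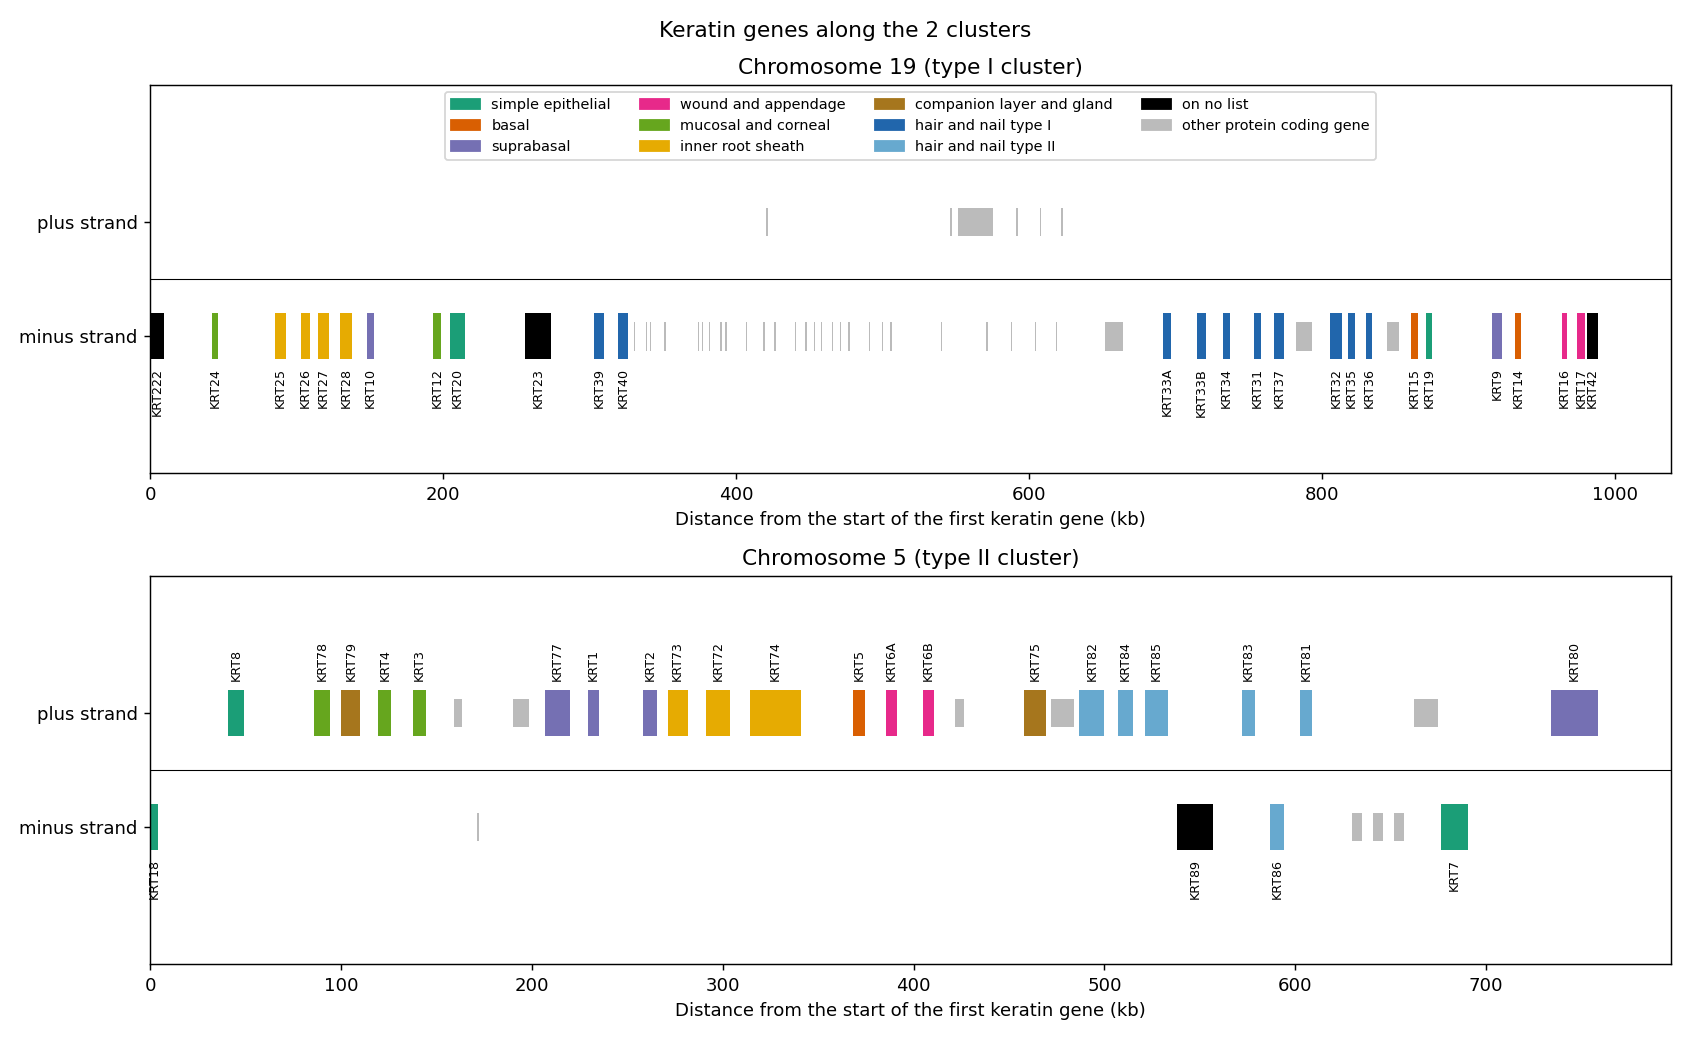
Position of each keratin gene (coloured by the role list it is on), as distance in kb from the first keratin gene of its cluster, with the plus strand above and the minus strand below the line; grey boxes are the other protein coding genes. All 27 genes of chromosome 19 lie on the minus strand with a keratin-free stretch of 365 kb after KRT40, whereas 4 of the 25 genes of chromosome 5 lie on the minus strand.

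Strand order differed between the clusters. In the type I cluster 26 of 26 neighbouring pairs had the same strand (100%), and in the type II cluster 17 of 24 (70.8%). Over both clusters it was 43 of 50 pairs (86%), beside 51% of the neighbouring protein coding pairs of the whole annotation (11075 of 21733). The keratin pairs skip other coding genes that lie between members, which the whole-annotation pairs do not. Among neighbouring coding genes of any name the shares were 84.1% in the type I and 66.7% in the type II cluster. The 18 members from KRT8 to KRT85 all lay on the plus strand. From KRT85 on, strands alternated: the 7 genes KRT85, KRT89, KRT83, KRT86, KRT81, KRT7 and KRT80 made 6 pairs, every one of them on opposite strands. Head to head pairs, besides KRT18 and KRT8, were KRT89 and KRT83 (15.2 kb), KRT86 and KRT81 (8.56 kb) and KRT7 and KRT80 (43.7 kb). Tail to tail pairs were KRT85 and KRT89 (4.83 kb), KRT83 and KRT86 (8.03 kb) and KRT81 and KRT7 (67.8 kb). The minority strand of the type II cluster therefore held KRT18, KRT89, KRT86 and KRT7.

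Genes with the same role did not always stand together. Role lists taken from textbook knowledge held 53 symbols, of which 48 were found among the members. The symbols KRT6C, KRT13, KRT76, KRT71 and KRT38 matched no gene record and were not analysed here, and KRT222, KRT23, KRT42 and KRT89 were on no list. Of 14 role groups with 2 or more members on 1 chromosome, 5 made a single unbroken run: both inner root sheath groups, both wound and appendage groups (KRT16 with KRT17, and KRT6A with KRT6B) and the type I hair keratins. The other groups were split. The suprabasal type I genes KRT10 and KRT9, for example, took the 7th and 23rd places and together spanned 774 kb, and the simple epithelial KRT7 and KRT18 lay at opposite ends of the type II cluster.

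Between KRT40 and KRT33A the type I cluster had a gap of 365 kb with no keratin gene, which made up 37.0% of its span. This was the widest gap of either cluster, and it lay inside the run of hair keratins. It held 35 other protein coding genes over 334 kb (chr19:41190862-41524638), 31 of them with 1 exon (88.6%), 29 on the minus and 6 on the plus strand. Their 5 named genes were KRTAP3-3, KRTAP3-1, KRTAP1-1, KRTAP4-7 and KRTAP9-1. KRTAP genes encode keratin-associated proteins, the small cysteine-rich or glycine-rich proteins that cross-link keratin filaments in the hair shaft. The coding sequence of the 1-exon genes in this gap ran from 294 to 888 bases with a median of 552, and the most frequent length, 627 bases, occurred in 5 genes. Elsewhere the annotation named 9 more KRTAP genes, all on chromosome 1, and 13 of the 14 named KRTAP genes had 1 exon.

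Coding genes with no symbol lay inside both clusters. The type I cluster held 32 of them, beside 27 members and 5 other named coding genes. In the type II cluster there were 9, beside 25 members and 0 other named coding genes. Over all protein coding genes 19.5% had no symbol (4270 of 21861). Every member has a symbol by the rule, so a share among non-members alone cannot be set against that value. No family name is given to the unnamed genes here. Their exon structure is compared with that of the members below. Outside the stretch between KRT40 and KRT33A the type I cluster held only ENSBTAG00000053139 (chr19:41643286-41653975, between KRT37 and KRT32) and ENSBTAG00000050581 (chr19:41705326-41713040, between KRT36 and KRT15). Both lay on the minus strand like the keratins around them. In the type II cluster, 3 lay between KRT3 and KRT77 (ENSBTAG00000050617, ENSBTAG00000053300 and ENSBTAG00000027974), 1 between KRT6B and KRT75 (ENSBTAG00000040019), 1 between KRT75 and KRT82 (ENSBTAG00000054953) and 4 between KRT81 and KRT7. Of these 9, 7 had 6 or more exons, and ENSBTAG00000050617 and ENSBTAG00000053300 were short, with 86 and 136 codons.

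Genes of the type II cluster, with KRT18 counted among them, were longer than those of the type I cluster by their medians. Gene length, from the first to the last base of all transcripts, ran from 3.64 kb (KRT16, chr19:41824311-41827946) to 17.6 kb (KRT23, chr19:41116547-41134104) in the type I cluster, with a median of 6.13 kb. In the type II cluster it ran from 4.07 kb (KRT18, chr5:26998530-27002595) to 26.7 kb (KRT74, chr5:27312578-27339251), with a median of 8.25 kb. The ranges overlapped widely. Both medians were below that of all protein coding genes, 14.0 kb. Members' coding sequences had 295 (KRT222) to 528 (KRT9) codons in the type I cluster, with a median of 453. The type II cluster had 429 (KRT18) to 628 (KRT3), with a median of 540. The shortest gene of the type II cluster, KRT18, was thus also its gene with the fewest codons. Introns made up 51.4% to 91.0% of the transcript in members of the type I cluster (median 71.4%). In the type II cluster they made up 53.7% (KRT18) to 91.2% (median 68.8%).

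Spacing from body to body was similar in the clusters. The gap from 1 member's body to the next had a median of 11.2 kb in the type I and 11.0 kb in the type II cluster, below the 15.9 kb of all neighbouring protein coding genes. Some of these member gaps held other coding genes. For pairs with none between, the medians were 10.1 and 10.0 kb. The narrowest type I gap was 1.49 kb, between KRT17 (chr19:41834618-41840426) and KRT42 (chr19:41841920-41849264). In the type II cluster the narrowest was 4.83 kb, between KRT85 (chr5:27519707-27531883) and KRT89 (chr5:27536710-27555398), and the widest was 67.8 kb, between KRT81 (chr5:27600962-27607091) and KRT7 (chr5:27674854-27689030), where 4 unnamed coding genes lay. Gaps under 10 kb numbered 11 of 26 and 10 of 24. Where no other coding gene lay between neighbours, the gap was at most 41.2 kb on chromosome 19 (23 pairs) and 43.7 kb on chromosome 5 (20 pairs). Member bodies filled 17.7% of the type I and 34.3% of the type II span, with 2.73 and 3.30 members per 100 kb. The nearest outside coding genes were SMARCE1, 4.62 kb before KRT222, and EIF1, 58.0 kb after KRT42, and EIF4B, 49.1 kb before KRT18, and SMIM41, 48.1 kb after KRT80.

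**Figure D2:**
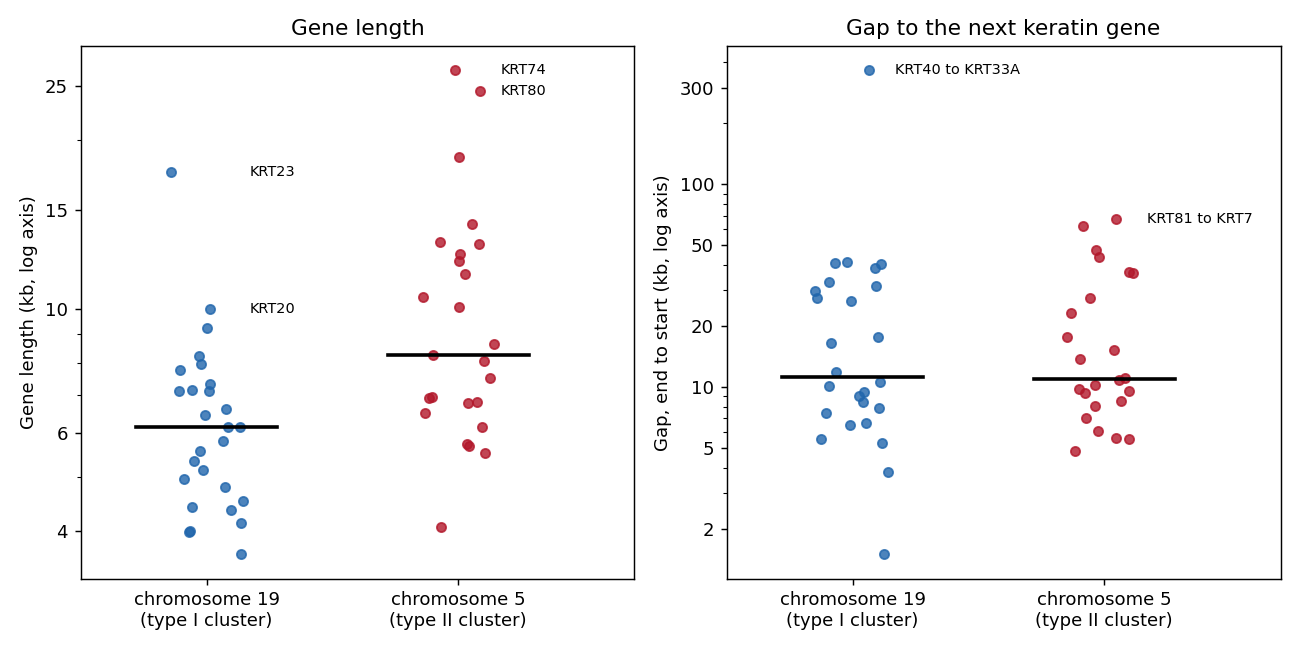
Gene length (left) and gap to the next keratin gene (right), both in kb on log axes; each point is 1 gene or 1 neighbouring pair and the black lines are medians. Median length was 6.13 kb on chromosome 19 and 8.25 kb on chromosome 5, and the 365 kb gap from KRT40 to KRT33A stands apart from all other gaps.

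Gene-activity scores of single-cell ATAC data commonly count fragments over the gene body and 2 kb before its start. With that window, 2 of the 52 members (3.85%) overlapped the window of another protein coding gene, beside 30.1% of all protein coding genes (6577 of 21861). The pair was KRT17 and KRT42, whose windows shared 507 bases, 6.49% and 5.43% of the respective window. No member's window reached a KRTAP gene or an unnamed coding gene. KRT4 (chr5:27117923-27124833) was the only member whose body overlapped a gene of any biotype: it lay wholly within a minus-strand pseudogene, ENSBTAG00000053748, of 12.6 kb and 29 exons.

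The most frequent exon number differed between the clusters. In the transcript with the longest coding sequence, 8 exons were most frequent in the type I cluster (15 of 27 members, 55.6%) and 9 in the type II cluster (19 of 25, 76%). Among all protein coding genes 4.62% had 8 exons and 4.66% had 9. In the type I cluster KRT19 had 6 exons, and 8 genes had 7: KRT222 and the hair keratins KRT39, KRT40, KRT31, KRT37, KRT32, KRT35 and KRT36. KRT24, KRT33A and KRT16 had 9. In the type II cluster KRT18 had 7, KRT79 and KRT3 had 8, KRT74 and KRT80 had 10, and KRT83 had 11. KRT18 thus had fewer exons than the most frequent number of either cluster.

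The lengths of the coding exons showed which stretch of each gene was constant. Coding exons were numbered from the start of the coding sequence. In the type I cluster exon 2 was 83 bases in 23 of 27 members, exon 3 157 in 23, exon 4 162 in 24 and exon 5 126 in 23. In the type II cluster, KRT18 left aside, exon 3 was 61 bases in 23 of 24 members, exon 4 96 in 22, exon 5 165 in 22 and exon 6 126 in 23. Type II coding exon 7 was 221 bases in 20 of 24. Type I coding exon 6 was 221 bases in 14 of 27. In KRT33A, KRT33B and KRT34 coding exon 7 had this length, and in KRT16 coding exon 8. The inner root sheath genes KRT25 to KRT28, KRT10 and KRT24 had an exon of 218 bases after the run, and KRT9 one of 224. The ends varied: the first coding exon took 22 different lengths among 27 type I genes (96 to 657 bases) and 20 among 24 type II genes (5 to 600). Even so, the second coding exon began on a codon boundary in 25 of 27 type I and 23 of 24 type II genes.

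**Figure D3:**
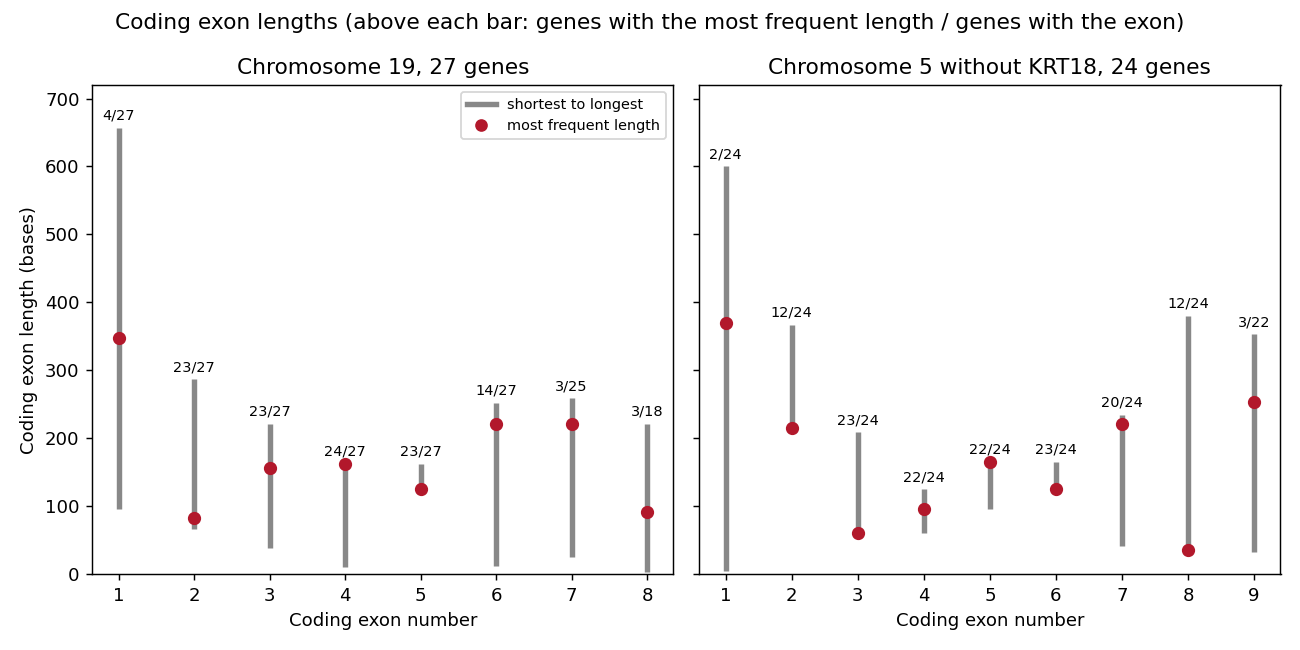
Length in bases of each coding exon by its number, up to the most frequent exon number, for the type I cluster (left) and the type II cluster without KRT18 (right); bars span the shortest to the longest gene, points mark the most frequent length and the fractions count the genes with it. Exons 2 to 5 of chromosome 19 and 3 to 6 of chromosome 5 have 1 length in 22 to 24 genes, while first and last exons rarely repeat a length.

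These runs of exon lengths were searched in every transcript of every protein coding gene. Consecutive coding exons of 83, 157, 162 and 126 bases, 528 bases in all, occurred in 25 genes. They were 23 keratins, all on chromosome 19, and the unnamed ENSBTAG00000053139 and ENSBTAG00000050581 inside the same cluster; 0 other named genes had the run. The type II run of 61, 96, 165 and 126 bases occurred in 28 genes: 23 keratins, all on chromosome 5, and 5 unnamed genes of the cluster, ENSBTAG00000027974, ENSBTAG00000040019, ENSBTAG00000052798, ENSBTAG00000054816 and ENSBTAG00000054136. Again 0 other named genes had it. Each run thus occurred in its own cluster and nowhere else in the annotation. The runs are related by their sums: 61 and 96 make 157, and 165 exceeds 162 by 3 bases, 1 codon.

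Some other intermediate filament genes had runs that partly matched these, and others did not. Of the 15 listed, INA, NEFL, NEFM, NEFH, NES and SYNM (6 genes) had only 3 or 4 coding exons and none of the runs. VIM (vimentin, of mesenchymal cells), DES (desmin, of muscle) and GFAP (of astrocytes) shared 61, 96, 162 and 126 bases, the type II boundaries with the type I length of 162. PRPH (peripherin, of neurons) had 61, 96, 168 and 126. The lens filament gene BFSP2 on chromosome 1 had 83, 157 and 162 bases as the type I genes do, but then 132, and was the only named gene besides keratins with those 3 lengths in a row. The pair of 126 and 221 bases was wider spread, in 54 genes: 39 keratins, 6 unnamed genes and 9 others, of which DES, LMNA, PRPH, LMNB1, LMNB2, VIM and GFAP encode intermediate filament proteins, and EMILIN1 and PRRC2C do not.

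**Figure D4:**
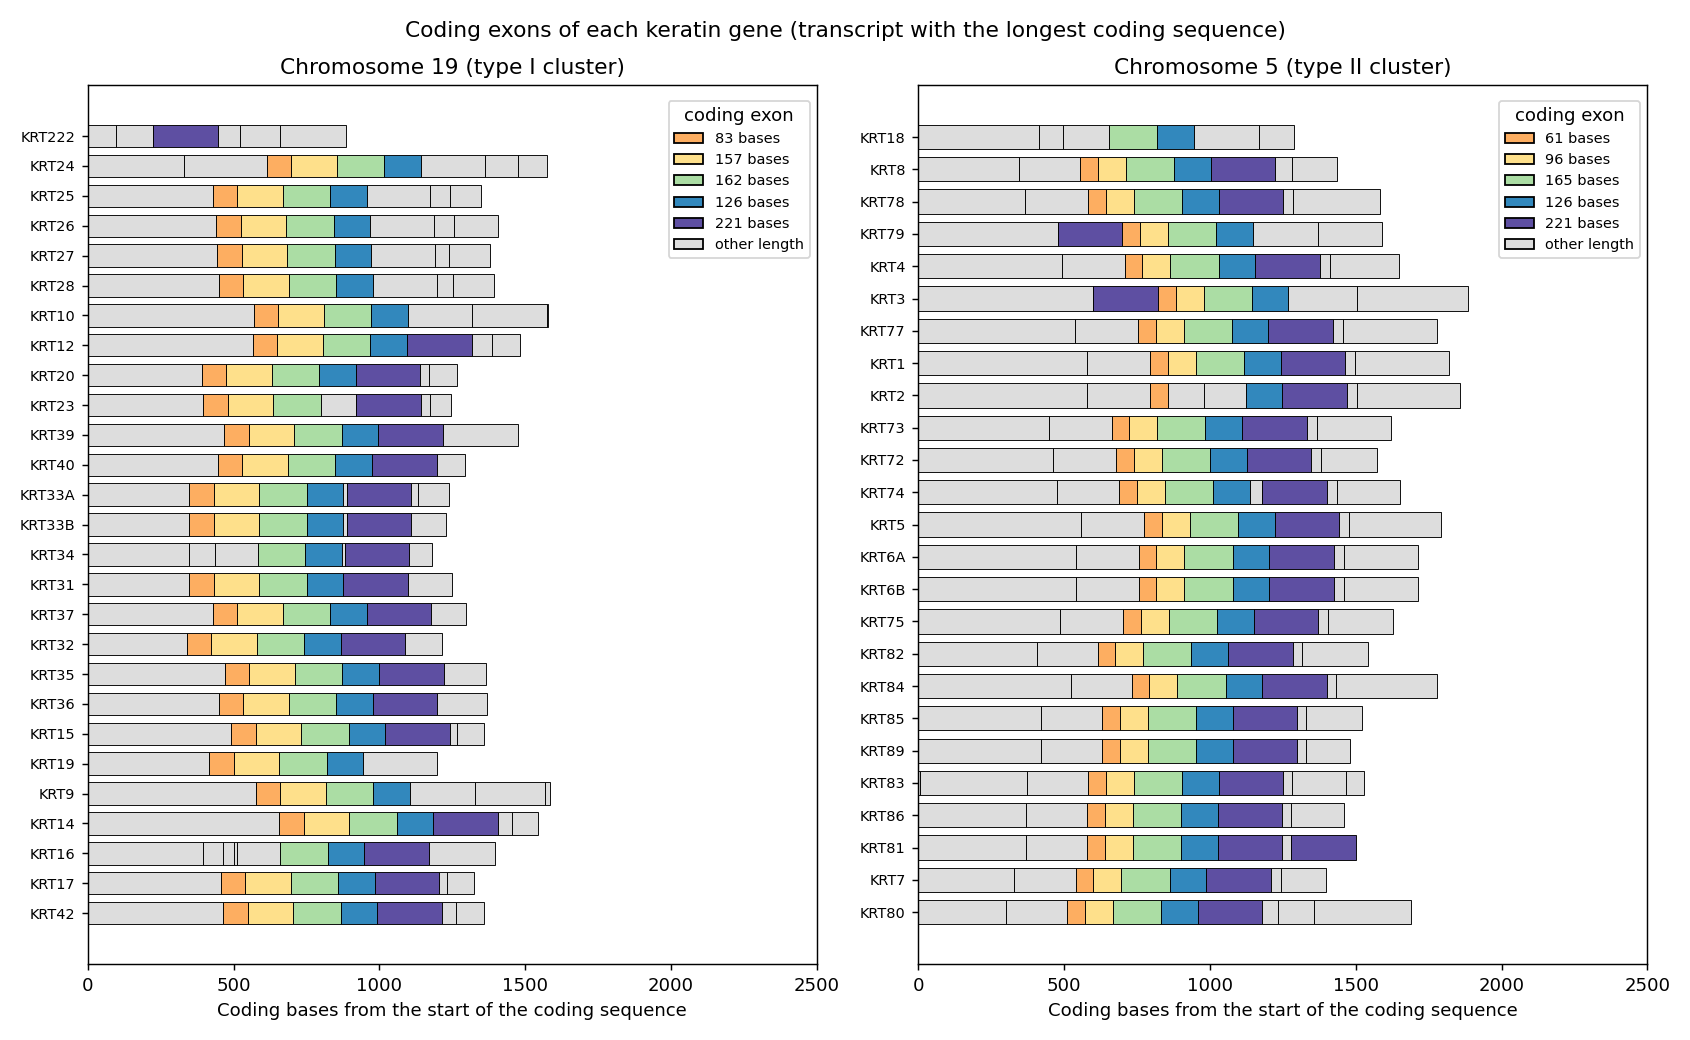
Coding exons of each keratin gene in chromosome order, drawn to scale in coding bases from the start of the coding sequence; an exon is coloured wherever its length equals one of the run's lengths or 221 bases, and grey otherwise. The coloured run recurs in most genes at a shifting offset set by the coding exons before it, and KRT222, KRT23, KRT34, KRT16, KRT18 and KRT2 break it.

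Of the 52 members 46 had the run of their cluster and 6 did not. KRT18 on chromosome 5 had coding exons of 414, 83, 157, 165, 126, 224 and 118 bases. Its exons 2 and 3 had the type I lengths, exon 4 the type II length of 165, and no exon of 61 or 96 bases was present. In KRT2, of the upper epidermis, exons of 125 and 142 bases stood where other type II genes have 96 and 165, with a sum of 267 against 261. KRT23 had 123 bases in place of 126. KRT34, a hair keratin, had 87 and 147 bases (sum 234) where its neighbours have 83 and 157 (sum 240). This depended on the transcript: another of KRT34 had 83, 10 and 147 bases before 162 and 126, and a further one 296 and 205 before 162. KRT16, induced at wound edges, had 395, 67, 38, 10 and 150 bases before 162, 126 and 221. KRT222 was the most different: its 6 coding exons of 96, 129, 221, 77, 136 and 226 bases held none of the 4 lengths of the type I run.

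After the exon of about 221 bases, type I hair keratins and the other type I genes differed in number of coding exons. Of 10 hair and nail genes 9 had a single further coding exon, of 76 to 259 bases. The exception, KRT33A, had 2 in the transcript with the longest coding sequence and 1 in its other transcript. Other transcripts also crossed this division: 1 of KRT31 had 2 further coding exons, and 1 each of KRT20, KRT23 and KRT14, which are not hair genes, had 1. Among the other 17 type I genes 14 had 2 further coding exons, KRT16 had 1, and KRT19 had no exon of about 221 bases, its coding sequence ending within an exon of 252 bases. KRT222 could not be placed, since its exon of 221 bases was coding exon 3 of 6, with 3 after it, and its last had 226. KRT19 is known as the keratin that lacks a tail. In KRT10 and KRT9, both of the suprabasal epidermis, the first of the 2 exons was long, 258 and 239 bases, against 26 to 113 in the other 12. Coding sequence past the rod exon came to 262 bases in KRT10 and 256 in KRT9. It was 259 in the hair gene KRT39, 226 in KRT16, 220 in KRT26 and 214 in KRT24, and 139 in KRT14 and 118 in KRT15 and KRT17.

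Type II genes fell into classes by the exon just before the run and the small exon just after the 221-base exon. The transcript with the longest coding sequence was used. The combination of 209 and 32 bases occurred in 7 members, KRT82, KRT84, KRT85, KRT89, KRT83, KRT86 and KRT81. These are the 6 type II hair and nail genes of the role list plus KRT89, which stands among them. The combination of 215 and 35 bases occurred in 12: KRT78, KRT4, KRT77, KRT1, KRT2, KRT73, KRT72, KRT74, KRT5, KRT6A, KRT6B and KRT75. Epidermal, mucosal, inner root sheath and companion layer genes therefore shared 1 combination. The simple epithelial genes each had a combination of their own, 209 and 59 bases in KRT8 and 212 and 35 in KRT7, as did KRT80 with 209 and 56. KRT79 and KRT3 had 221 bases before the run and no small exon of this kind after it in the transcript used. The other KRT3 transcript did have a 35-base exon after one of 221. The classes depended on the transcript in other genes too. KRT5, KRT75, KRT85, KRT86, KRT81 and KRT80 each had another transcript without the small exon. Another KRT7 transcript had 18 bases in place of 35, and another of KRT77 had 29 after an exon of 254.

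A pair of gene sets had the same coding exon lengths throughout. KRT6A (chr5:27384131-27389818), KRT6B (chr5:27403486-27408998) and the unnamed ENSBTAG00000040019 (chr5:27420179-27424954), which follow one another, all had coding exons of 540, 215, 61, 96, 165, 126, 221, 35 and 254 bases, and 571 codons. Their introns differed, with totals of 3088, 3329 and 3060 bases, and only introns 7 (217 bases) and 8 (111 bases) were equal in all 3. KRT6 genes encode the type II partners of KRT16 and KRT17 and are known to be duplicated in mammals.

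A second set stood between KRT81 and KRT7, all on the minus strand: ENSBTAG00000052798 (chr5:27628332-27633606), ENSBTAG00000054816 (chr5:27639400-27644675) and ENSBTAG00000054136 (chr5:27650469-27655743). All 3 had coding exons of 420, 209, 61, 96, 165, 126, 221, 32 and 110 bases and 480 codons, which is the 209 and 32 combination of the hair class. Their bodies measured 5275, 5276 and 5275 bases, the gaps between them were 5793 and 5793 bases, and their starts lay 11068 and 11069 bases apart. Of their 8 introns 6 were equal in length in all 3, and the others differed by 1 base. The fourth unnamed gene of this stretch, ENSBTAG00000016166 (chr5:27660828-27673135), had 10 exons and 474 codons and lacked the full run.

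Among the other unnamed genes, ENSBTAG00000050581 had 483, 83, 157, 162, 126, 221 and 85 bases and 439 codons. Its 5 inner exons equalled those of the hair keratins KRT39, KRT40, KRT31, KRT37, KRT32, KRT35 and KRT36. ENSBTAG00000053139 had the type I run in 1 of its transcripts, while the one with the longest coding sequence had 420, 83, 157, 173, 112, 181 and 257 bases. ENSBTAG00000027974 (chr5:27188573-27197012) had the type II run, with 221 bases before it as in KRT79 and KRT3, in its transcript of 599 codons. Its transcript of 612 codons had 163 bases in place of 126 and so lacked the run. ENSBTAG00000054953 (chr5:27470665-27482792), with 7 exons and 386 codons, did not have the run.

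KRT74, an inner root sheath gene, owed its length to 1 of its 3 transcripts. That transcript covered 26.7 kb, whereas the others covered 7.49 kb (chr5:27313494-27320985) and 8.52 kb (chr5:27313455-27321972). It shared only its first exon with them. Its first intron measured 19.9 kb against 0.597 kb in the others, and its 8 other exons began 11.9 kb past the end of the shorter transcripts and covered 5.40 kb. Its coding exons of 474, 215, 61, 96, 165, 126, 221, 35 and 209 bases again held the whole type II run, so the record spans 2 complete sets of run exons. The symbol KRT71, of the remaining type II inner root sheath keratin on the list, matched no record. Which transcript is used changes the length of KRT74, and its gap of 27.5 kb to KRT5.

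Very short introns were more frequent in the type I cluster than in the annotation as a whole. An intron under 50 bases occurred in 7 of 52 members (13.5%), beside 3.54% of all protein coding genes (773 of 21861). By introns it was 8 of 382 (2.09%) in the members and 854 of 174530 (0.489%) overall. The type I cluster had 7 of these among its 182 introns, in 6 of 27 members. The type II cluster had 1 among 200, in 1 of 25 members. The short introns measured 40 bases in KRT222, 36 in KRT24, 48 in each of KRT33A, KRT33B and KRT34, 32 and 39 in KRT16, and 30 in KRT83. The hair genes KRT33A, KRT33B and KRT34 each had a 12-base coding exon beside the 48-base intron, between the exons of 126 and 221 bases. In the other transcript of KRT33A, and in another of KRT34, the 126-base exon was followed directly by that of 221. KRT24 had 328 and 287 bases on either side of its short intron, together 615, before the type I run. KRT83 began with a 5-base coding exon followed by one of 367, together 372, and ended with 183 and 62 bases on either side of its 30-base intron, together 245. Of the 3 members with more exons than usual on chromosome 19 (KRT24, KRT33A and KRT16), all had such an intron, and so did KRT83, the member with most exons. KRT74 and KRT80, with 10 exons, did not: their shortest introns were 333 and 137 bases.

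The lists of other intermediate filament genes and of filament partners were spread over more chromosomes, with small groups of neighbours. The 15 other intermediate filament genes of the list lay on 11 chromosomes, with 3 to 14 exons (median 8) and lengths of 3.60 to 76.8 kb (median 9.82). PRPH lay on chromosome 5, 2.76 Mb past KRT80, and GFAP on chromosome 19, 2.76 Mb past KRT42. Within the 500 kb used to define the keratin clusters, the neurofilament genes NEFM and NEFL were 26.6 kb apart, and NES and LMNA 474 kb. Of 12 genes for desmosomal, linker and cornified-envelope partners, 10 were found, on 7 chromosomes, with lengths of 14.7 to 56.7 kb (median 40.2). By the same limit the desmosomal cadherin genes DSG3, DSG1 and DSC3 stood together, with gaps of 78.7 and 261 kb, and so did PLEC and EPPK1, 44.0 kb apart. JUP, encoding the desmosomal plaque protein plakoglobin, was close to a keratin cluster, 112 kb past KRT42.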

How the data were processed

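Single-cell ATAC libraries were made from reindeer skin, per the titles in the labels and the series text, although the labels' extraction protocol describes a cDNA library. The series text names Signac 1.2.1, and Cell Ranger ATAC, Cell Ranger and the build ARS-UCD1.2 are named in the submitters' processing notes. Versions of Cell Ranger ATAC and Cell Ranger are not given in the sources here. The authors deposited the gene annotation used here, a list of gene, transcript, exon and coding records in cattle coordinates. No library values were used, so depth does not apply and no test was made. No reference sequence or protein table was used here, so no sequence is shown.

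From the deposited records, genes were grouped into clusters with Python 3.11.15 and NumPy 2.4.6 wherever neighbouring members lay at most 500 kb apart. Exons were counted in the transcript with the longest coding sequence. Exon runs were searched in any transcript. Windows were the gene body plus 2 kb upstream, and 1 shared base counted as overlap. The calculations were tested on simulated data, where 9 of 9 quantities came out as set. Members, role lists and alternatives were chosen with earlier results of these data known. Genes were named by a rule: cluster ends, extremes of length and gap, minority strands, unusual exon numbers, overlaps, and unnamed genes where 12 or fewer. Exon runs, short introns and repeated structures were added after their values were seen. Alternatives covered the member rule, the cluster gap, the transcript, the window and the definition of length and gap.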

Additional observations from a re-analysis of the deposited data

How the results depend on the processing

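Of 43 alternative values for 29 results, 35 stayed within set limits and 8 moved. The limits were 1.5 times the reported value or, for shares, its 95% exact binomial (Clopper-Pearson) interval. That interval served only as a tolerance, since the genes and pairs are not a random sample. With a largest gap of 100 kb in place of 500 kb, the type I cluster split at its widest gap into 12 genes (KRT222 to KRT40, 326 kb) and 15 genes (KRT33A to KRT42, 297 kb). By merged exonic length the medians were 1.64 kb (type I) and 2.27 kb (type II). From start site to start site the median gap was 16.5 kb in the type I and 22.2 kb in the type II cluster, and only the latter counted as moved. Among coding genes of any name, 84.1% of neighbouring type I pairs had the same strand. Windows without upstream bases gave 0 overlapping type I members, and those with 5 kb gave 6 type I and 4 type II members. The most frequent exon numbers remained 8 and 9 under all exon settings tried. With exons merged over transcripts, however, the type I share with the most frequent number was 40.7%, against 55.6%. Chosen after seeing the data were a limit of 70 bases for short introns (7 members), the run in the longest coding transcript alone (46 members) and the run with the exon of 221 bases after it (36 members). The planned comparison of protein identity was not run, because no protein sequences were used here. No paired analysis was possible because no result comes from a test across samples. The structures are those of cattle gene models, whose errors cannot be told apart from true differences between genes.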

Other observations

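All 52 members had a stop codon and a coding sequence divisible by 3, and 51 had an annotated start codon; KRT20 had none. A 5' untranslated region was annotated in 40 members and absent from 12, of which 7 were type I and 5 type II genes. A single transcript was annotated for 16 members of the type I and 15 of the type II cluster, 2 transcripts for 10 and 7, and 3 for 1 and 3. The type I gene with 3 was KRT34, and the type II genes were KRT77, KRT74 and KRT80.

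First coding exons, which encode the head and the start of the rod, had overlapping lengths in most roles. In the inner root sheath genes they were 429 to 450 bases on chromosome 19 and 447 to 474 on chromosome 5. Those of the type I hair keratins were 339 to 471 bases, while the basal KRT15 and KRT14 had 492 and 657 and the suprabasal KRT10 and KRT9 had 570 and 576, close to the 567 of the corneal KRT12. On chromosome 5 the suprabasal genes had 300 to 579 bases, the mucosal and corneal genes 366 to 600 and the hair genes 5 to 522. The value of 5 was that of KRT83, whose coding exons 1 and 2 together had 372 bases. These values describe the records, and no test was made.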
